A study of Homo sapiens with 18 samples.

Results

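The MYC, MAX and MXD network is a family of transcription factors that compete for shared DNA sites and for a common partner. It was taken as the rows of 8 gene symbols, MYC, MAX, MXD1, MXD3, MXD4, MXI1, MNT and MGA, in a table of 60504 Ensembl identifiers. Each symbol matched 1 row. The cells were A375, an established human melanoma line, and the agent was IMD-0354, a small molecule known as an inhibitor of the NF-κB pathway kinase IKKβ. There were 6 groups with 3 libraries each. One set of cells received no IMD-0354 or 0.32, 0.63 or 1.25 µM for 24 h, and a second set received 0.63 µM or none for 48 h. All groups were grown in the same serum-containing medium, A375 is a single tumour line, and whether the untreated cells received a vehicle is not stated in the labels. The labels do not say whether the 3 libraries of a group derive from independent cultures. The p-values therefore reflect the variation among these libraries alone, part or all of which may be technical. In such bulk samples a lower level in each cell and a smaller share of cells holding a transcript cannot be told apart. The deposited library names carry numbers, which are lower for 0.63 and 1.25 µM at 24 h than for every other library. What the numbers stand for is not stated. Differences between these groups and the others cannot be told apart from whatever the numbers reflect.

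MYC activates genes of growth, ribosome production and cell cycle entry. It does so only as a dimer with MAX, the hub of the network, which binds DNA through the E-box CACGTG. MXD1, MXI1, MXD3 and MXD4 also pair with MAX but bring the SIN3 and histone deacetylase corepressor to the same sites. All of these but MXD3 are known for their rise when cells leave division. MXD3 is the member known for expression in dividing cells. MNT is a widely expressed repressor of the same kind, and MGA is a large protein that joins MAX to the Polycomb complex PRC1.6.

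The E-box, the element that all these dimers read, is itself present in the promoters of some members. RefSeq windows of 300 bases, from 250 before to 50 after a start site (build GRCh38.p14), were read for 7 of the 8 members. MYC was left out of this reading, so its promoter is not covered here. Of the 12 windows read 2 held CACGTG, 1 of MXD4 and 1 of MNT. Of all 35116 promoter windows 7.26% held it. The sites are shown with their flanks, read on the gene's minus strand, with the E-box in capitals. They begin at -238 in MXD4 (chr4:2262330-2262359) and at -193 in MNT (chr17:2401236-2401265), counted from the start site.
MXD4: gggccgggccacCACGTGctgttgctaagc
MNT: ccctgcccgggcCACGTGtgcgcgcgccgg
Neither gene passed the test in any comparison described here, and a match of letters is not a measured binding site.

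Values were TPM, transcript levels per length scaled to a fixed total in each library, so sequencing depth is unknown. Libraries made from 3' ends yield about 1 tag a transcript whatever its length, so levels of different genes compared in TPM carry the error of that length correction. Between 14647 and 17029 genes were above 0 in a library. The melanocyte lineage factors SOX10 and MITF were present in every library, at 8.29 to 34.72 TPM and 2.87 to 16.80 TPM, while the pigment enzymes TYR and TYRP1 were listed at 0 in all 18. The summed melanocyte markers, 4 of 8 measured, were lower at 48 h with IMD-0354 (15.96 to 19.68 TPM) than without it (31.51 to 35.42 TPM). The leukocyte marker PTPRC, the endothelial markers VWF and CDH5 and the keratinocyte markers KRT1 and TP63 were listed at 0 in every library. The keratinocyte list summed to 72.69 to 102.57 TPM at 1.25 µM and 39.24 to 45.12 TPM in untreated cells at 24 h, with 1 of its 6 members, KRT10, passing the minimum level. At that level the leukocyte list likewise held 1 of 6 members, CD74, with sums of 36.00 to 107.98 TPM over all libraries, and the fibroblast and endothelial lists held none. The part of these markers in the results on the network was not tested. Untreated 24 h replicates 2 and 3 correlated least with their own group (mean r across genes 0.907 and 0.920, against 0.929 to 0.953 elsewhere).

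Under IMD-0354 some members of the network passed against untreated cells. MYC rose at 0.63 and 1.25 µM at 24 h, MXD1 rose at 1.25 µM at 24 h and at 0.63 µM at 48 h, and MXD3 fell at 48 h. MXD3, the only fall, was at 0.00 to 0.47 TPM against 3.59 to 5.35 TPM in untreated cells. Its call held in 2 of 6 fits with a library left out. MAX, MXI1, MXD4, MNT and MGA did not pass in any comparison. All 8 genes passed the minimum of 1 TPM in at least 3 libraries, and a gene passed the test at a Benjamini-Hochberg adjusted p under 0.05 over all 14936 genes. Differences are in log2(TPM + 1), IMD-0354 minus untreated, and understate the change of genes at such low levels. At 0.32 µM 0 of 8 members passed limma's test and 0 had an unadjusted p under 0.05. There 0.0268% of all genes passed and 912 had an unadjusted p under 0.05. At 0.63 µM for 24 h 1 member rose, against 2.18% of all genes passing in either direction. At 1.25 µM 2 rose and 0 fell, against 11.3%. At 0.63 µM for 48 h 1 rose and 1 fell, against 7.63%. The members' median difference was 0.20, 0.18 and 0.12 at 0.32, 0.63 and 1.25 µM and 0.01 at 48 h, where the median of all genes was 0.00, 0.00, -0.01 and -0.15.

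**Figure D1:**
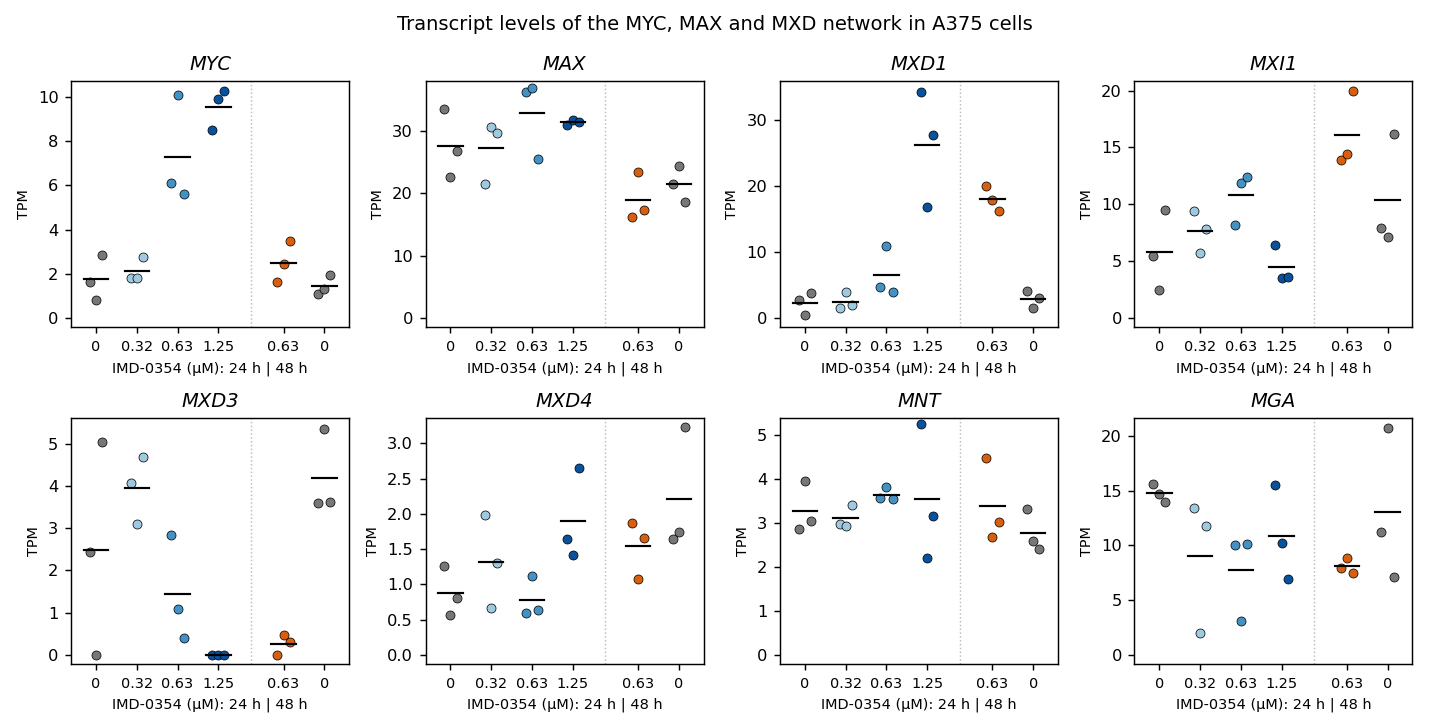
TPM of each network member (vertical axes, linear) in the 18 libraries, by IMD-0354 dose in µM at 24 h and 48 h; points are libraries, bars are means of 3. MYC and MXD1 stand highest at 1.25 µM, at 8.47 to 10.23 and 16.76 to 34.14 TPM, and MXD3 is listed at 0 in all 3 of those libraries.

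MYC, on chromosome 8 from 127735434 to 127741434 on the plus strand (ENSG00000136997; GENCODE 29, GRCh38), was a low transcript in untreated A375 cells. At 24 h it stood at 1.61, 0.84 and 2.83 TPM in untreated cells, at 1.79, 1.81 and 2.75 TPM with 0.32 µM, at 6.10, 10.09 and 5.58 TPM with 0.63 µM, and at 8.47, 9.88 and 10.23 TPM with 1.25 µM. Libraries at 0.63 and 1.25 µM were all above the untreated ones, with no overlap, while those at 0.32 µM lay within the untreated range. The libraries at 0.63 and 1.25 µM are also those with the lower deposited numbers, so dose and that numbering cannot be told apart here. The rise was 1.61 at 0.63 µM (SE 0.308, adjusted p = 0.0155) and 1.99 at 1.25 µM (SE 0.308, adjusted p = 0.000687). From 0.63 to 1.25 µM the groups overlapped, with a difference of 0.39 (adjusted p = 0.607, 95% interval -0.27 to 1.04). Going from 0.32 to 0.63 µM the groups did not overlap, but the difference of 1.38 missed the threshold (adjusted p = 0.0579). The call at 0.63 µM was lost without untreated replicate 2 (adjusted p = 0.06), without 0.63 µM replicate 2 (0.0599) and without untreated replicates 2 and 3 together (0.13). The call at 1.25 µM held with each library left out and without that pair (2.01, adjusted p = 0.0153). With only the 2 compared groups fitted, MYC passed at neither dose (adjusted p = 0.257 at 0.63 µM and 0.0616 at 1.25 µM).

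At 48 h the MYC values overlapped between the groups. They were 1.64, 2.43 and 3.46 TPM with 0.63 µM, against 1.11, 1.33 and 1.97 TPM in untreated cells, and the difference was 0.49 (SE 0.308, adjusted p = 0.399, 95% interval -0.16 to 1.14). The same dose gave 1.61 at 24 h, in libraries with lower deposited numbers, so time and that numbering cannot be told apart either. The effect at 48 h minus that at 24 h was -1.12 (SE 0.435, 95% interval -2.04 to -0.19), with an unadjusted p of 0.0207 from limma and an adjusted p of 0.313. The median of all genes for this difference was -0.173. For MYC it was -0.93 under median-of-ratios scaling (adjusted p = 0.466 in limma) and -0.87 under quantile normalization (adjusted p = 0.473). In that test of the 2 effects 0 members passed in limma and 2, MYC and MXD3, had an unadjusted p under 0.05. Of all 14936 genes 0.0335% passed and 1784 had an unadjusted p under 0.05. Untreated cells at 48 h were at 1.47 ± 0.447 TPM and those at 24 h at 1.76 ± 1 TPM (SD, n = 3 each). Of the 8 members 0 passed in limma between the untreated groups, and 2 had an unadjusted p under 0.05. There 0.0134% of all 14936 genes passed and 1181 had an unadjusted p under 0.05.

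MAX, the obligate partner (ENSG00000125952; chromosome 14, 65006174 to 65102695, minus strand), had the highest mean TPM of the members in every group. Untreated libraries at 24 h held 33.44, 22.62 and 26.81 TPM, those at 0.32 µM 21.48, 30.64 and 29.65 TPM, those at 0.63 µM 36.14, 36.93 and 25.51 TPM, and those at 1.25 µM 30.98, 31.75 and 31.39 TPM. At 48 h they held 16.11, 23.43 and 17.25 TPM with 0.63 µM and 21.55, 24.43 and 18.64 TPM without it. All 4 treated groups overlapped the untreated ones of their time. The difference was 0.19 at 1.25 µM (adjusted p = 0.619, 95% interval -0.25 to 0.64) and -0.19 at 48 h (adjusted p = 0.688, 95% interval -0.64 to 0.26); the direction at 48 h turned to 0.01 under median-of-ratios scaling. As a ratio of TPM within a library, MYC per MAX was 0.0637 ± 0.037 in untreated cells at 24 h, 0.0784 ± 0.0173 at 0.32 µM, 0.220 ± 0.052 at 0.63 µM and 0.303 ± 0.0273 at 1.25 µM (SD, n = 3 each). At 48 h it was 0.136 ± 0.0566 with 0.63 µM and 0.0706 ± 0.0307 without it.

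**Figure D2:**
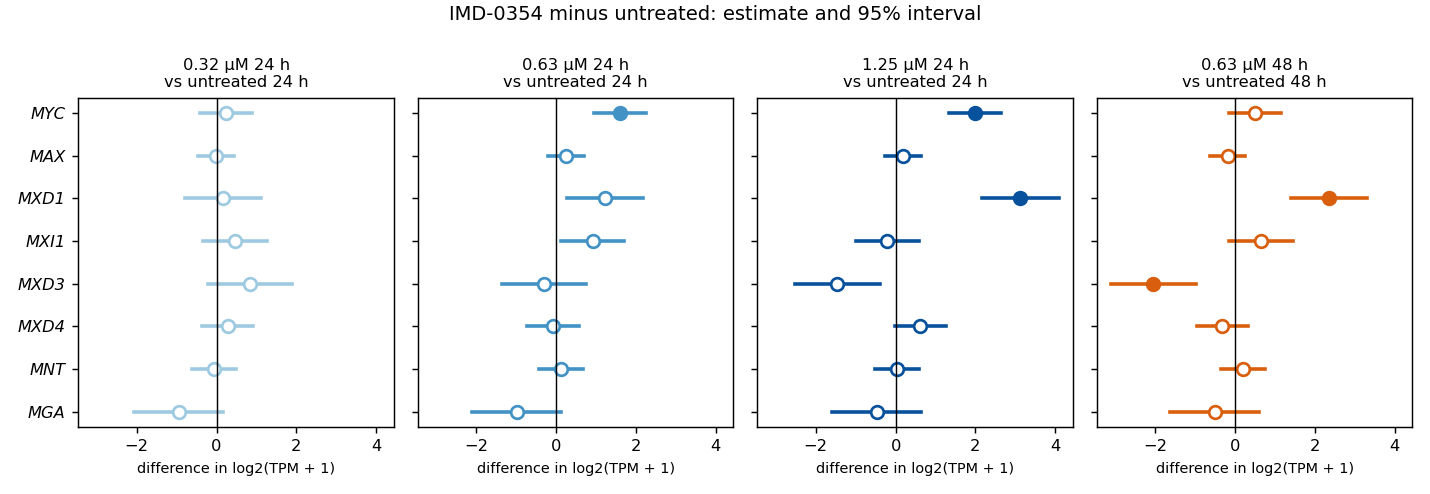
Difference in log2(TPM + 1) between IMD-0354 and untreated cells of the same time for each member (horizontal axis), with 95% intervals from the fit; filled points passed the test over all genes. MYC passes at 0.63 and 1.25 µM at 24 h, MXD1 at 1.25 µM and at 48 h (3.13 and 2.35), and MXD3 at 48 h (-2.05).

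MXD1, also called MAD1, is the founding MAX-binding repressor and gave the largest difference of the network on the log2(TPM + 1) scale, though with a pseudocount of 0.1 TPM that of MXD3 at 48 h was larger (-3.89, against 3.77 for MXD1 at 1.25 µM). The gene (ENSG00000059728) lies on chromosome 2, 69897688 to 69942945, plus strand. At 24 h it stood at 2.77, 0.45 and 3.87 TPM in untreated cells, 1.55, 3.96 and 1.97 TPM with 0.32 µM, 4.76, 10.92 and 3.93 TPM with 0.63 µM, and 34.14, 16.76 and 27.66 TPM with 1.25 µM. Every library at 1.25 µM was above every library of the other 24 h groups, and those at 0.63 µM were above the untreated ones by as little as the step between 3.93 and 3.87 TPM. The rise at 1.25 µM was 3.13 (SE 0.451, adjusted p = 0.000401), and 2.79 without untreated replicates 2 and 3 (adjusted p = 0.0141). With only the 2 compared groups fitted it missed the threshold (adjusted p = 0.0641). The difference at 0.63 µM was 1.22 (SE 0.451, adjusted p = 0.166, 95% interval 0.27 to 2.18). Between 1.25 and 0.63 µM it was 1.91 (SE 0.451, adjusted p = 0.0449), which made MXD1 the 1 member of 8 to pass at that step, where 1.51% of all genes did. That call was lost without 0.63 µM replicates 1 (0.138) or 3 (0.13) and without 1.25 µM replicates 1 (0.123) or 3 (0.152). It was also lost with no filter (0.0782), no mean-variance trend (0.0609), a pseudocount of 0.1 TPM (0.115) and only the 2 compared groups fitted (0.172). From 0.32 to 0.63 µM 0 of 8 members passed in limma, and 3 had an unadjusted p under 0.05. At that step 0.556% of all 14936 genes passed and 2082 had an unadjusted p under 0.05.

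After 48 h the same 0.63 µM gave 19.95, 17.92 and 16.25 TPM of MXD1, against 4.18, 1.48 and 3.03 TPM in untreated cells. The groups stood far apart, and MXD1 rose by 2.35 (SE 0.451, adjusted p = 0.00443), a call that held with each library left out. On this day the median of all genes was at -0.15 and a scaling by median of ratios moved it to 0.00, under which MXD1 rose by 2.54 and the MYC difference was 0.64. The effect on MXD1 at 48 h minus that at 24 h was 1.13 (SE 0.638, adjusted p = 0.506, 95% interval -0.23 to 2.48). Of the pair, both passed at 1.25 µM, MYC alone at 0.63 µM for 24 h and MXD1 alone at 0.63 µM for 48 h. A call in one group and none in another is not a test of a difference. In limma's test of the effect at 48 h minus that at 24 h neither gene passed (adjusted p = 0.313 for MYC and 0.506 for MXD1).

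MXD3 (ENSG00000213347; chromosome 5, 177301461 to 177312757, minus strand) went the other way at 48 h. It stood at 0.00, 0.47 and 0.30 TPM with 0.63 µM, against 3.59, 5.35 and 3.63 TPM in untreated cells. The groups did not overlap, and MXD3 fell by 2.05 (SE 0.5, adjusted p = 0.0183). The call was lost without untreated replicates 1 (0.0518) or 2 (0.0805) and without 0.63 µM replicates 1 (0.0661) or 3 (0.0611). At 24 h the values were 2.44, 0.00 and 5.04 TPM in untreated cells, 4.06, 3.11 and 4.68 TPM at 0.32 µM and 2.85, 1.08 and 0.40 TPM at 0.63 µM, and MXD3 was listed at 0 in all 3 libraries at 1.25 µM. None of 81 ribosomal protein genes was listed at 0 in any library, but these were taken for their high mean level. They cannot show how often a gene as low as MXD3 is listed at 0. Because untreated replicate 2 was also at 0, the groups overlapped at 1.25 µM and the gene did not pass (adjusted p = 0.0718). Without that library it passed (adjusted p = 0.00313), and without replicates 2 and 3 it did not (0.0624).

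MXD1 and MXD3 moved in opposite directions at 48 h, so their RefSeq promoter windows are shown (GRCh38.p14, MXD1 at chr2:69914859-69915158 on the plus strand, MXD3 at chr5:177312703-177313002 on the minus strand). The MXD1 window lies within the gene span of GENCODE 29. Capitals mark any match on either strand to the E-box CACGTG, the ATF4 and CHOP composite element TGATGNAAT, the AP-1 site TGANTCA, the E2F site TTTNGCGC or the κB site. No motif overlapped another in these windows.
MXD1: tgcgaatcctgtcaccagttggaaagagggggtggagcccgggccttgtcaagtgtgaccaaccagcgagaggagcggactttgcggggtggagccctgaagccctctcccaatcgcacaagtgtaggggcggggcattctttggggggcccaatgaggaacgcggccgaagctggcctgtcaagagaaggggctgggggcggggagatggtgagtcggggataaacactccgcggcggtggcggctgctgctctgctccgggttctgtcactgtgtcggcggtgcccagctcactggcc
MXD3: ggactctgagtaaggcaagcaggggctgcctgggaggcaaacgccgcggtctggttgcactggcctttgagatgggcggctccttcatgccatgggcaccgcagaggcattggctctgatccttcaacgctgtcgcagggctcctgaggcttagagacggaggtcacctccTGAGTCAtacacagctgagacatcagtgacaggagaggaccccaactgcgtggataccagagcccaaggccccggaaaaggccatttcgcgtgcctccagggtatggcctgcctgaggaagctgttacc
The MXD1 window held none of the 5 motifs. The MXD3 window held 1 AP-1 match, at base 172 of 300. In all 35116 windows the AP-1 site stood in 7.71%, the composite element in 0.991%, the E2F site in 1.79% and the κB site in 5.91%. MGA, whose product joins PRC1.6 with E2F6, had an E2F match in the windows at 41660155 and 41660497 of chromosome 15, and none of the 12 windows of these 7 members held a κB match or a composite element. Absence from these 300 bases says nothing of sites elsewhere.

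MXI1, also called MXD2 (ENSG00000119950; chromosome 10, 110207605 to 110287365, plus strand), had the highest mean TPM of the MXD genes in untreated cells. Its libraries held 5.46, 2.48 and 9.52 TPM in untreated cells at 24 h, 9.44, 5.72 and 7.86 TPM at 0.32 µM, 8.21, 11.86 and 12.39 TPM at 0.63 µM and 6.43, 3.50 and 3.63 TPM at 1.25 µM. The untreated libraries spread over the range of all but the 0.63 µM group. All libraries at 1.25 µM lay below all at 0.63 µM, with a difference of -1.12 that did not pass (SE 0.377, adjusted p = 0.152). At 48 h MXI1 was at 13.90, 14.38 and 19.96 TPM with 0.63 µM and 7.95, 7.11 and 16.18 TPM without it. The groups overlapped and the difference was 0.65 (adjusted p = 0.352, 95% interval -0.15 to 1.45).

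MXD4 (ENSG00000123933; chromosome 4, 2247432 to 2262294, minus strand) had the lowest mean TPM of the members in untreated cells at 24 h, at 1.26, 0.57 and 0.81 TPM, and overlapped MYC. It was at 1.65, 1.41 and 2.65 TPM with 1.25 µM, above all untreated libraries, but the difference of 0.62 did not pass (SE 0.304, adjusted p = 0.212). At 48 h it stood at 1.87, 1.08 and 1.66 TPM with 0.63 µM and 1.64, 1.74 and 3.23 TPM without it, and the groups overlapped.

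The summed level of the MXD genes, and the share of MXD1 in it, were read as a description and not tested. The summed TPM was 11.6 ± 7.88 in untreated cells at 24 h, 15.4 ± 1.81 at 0.32 µM, 19.6 ± 4.7 at 0.63 µM and 32.6 ± 10.3 at 1.25 µM, and at 48 h 35.9 ± 2.17 with 0.63 µM and 19.7 ± 5.58 without it (SD, n = 3 each). MXD1 made up 12.9 to 23.2% of that sum in untreated libraries at 24 h, 9.1 to 29.4% at 0.32 µM, 22.7 to 43.7% at 0.63 µM and 77.3 to 81.5% at 1.25 µM. At 48 h its share was 42.6 to 55.9% with 0.63 µM and 9.44 to 24.1% without it. Neither the sums nor the shares overlapped between 1.25 µM and untreated cells at 24 h, or between 0.63 µM and untreated cells at 48 h. The lowest sum at 1.25 µM was 21.67 TPM, and the highest in untreated cells at 24 h was 19.24 TPM. At 0.32 and 0.63 µM for 24 h both sums and shares overlapped those of untreated cells. Summed MXD per MYC, as a ratio of TPM, was 6.13 ± 1.72, 7.57 ± 1.88, 2.76 ± 0.321 and 3.5 ± 1.4 in untreated cells and at 0.32, 0.63 and 1.25 µM at 24 h. At 48 h it was 15.6 ± 5.59 with 0.63 µM and 13.5 ± 1.92 without it. At 0.63 µM for 24 h the libraries, at 2.48 to 3.11, were all below the untreated ones, at 4.17 to 7.41; at 48 h the groups overlapped. With 3 libraries against 3 an exact permutation test of a single ratio cannot go below p = 0.10, so none was made.

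**Figure D3:**
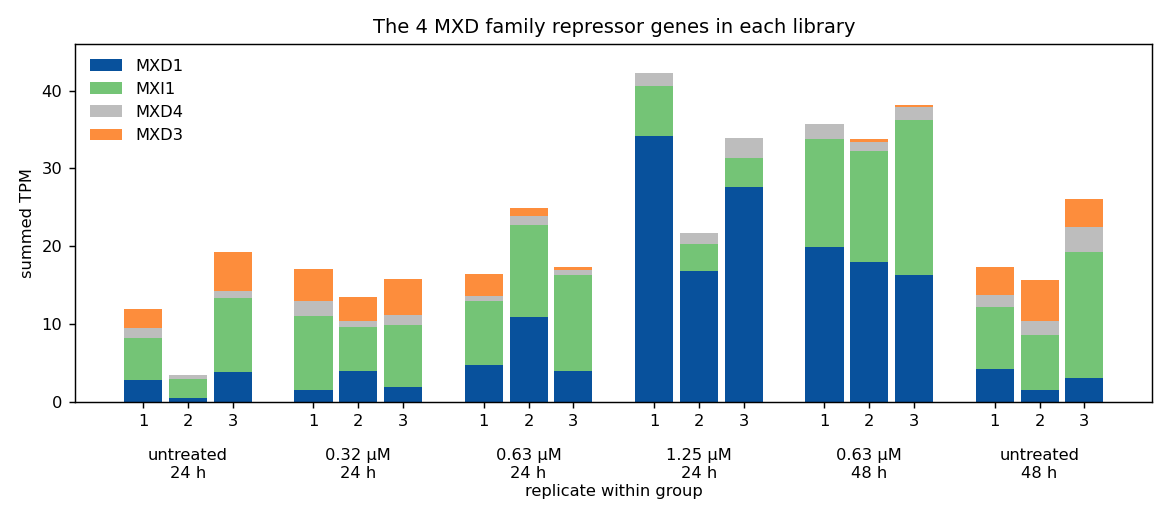
Summed TPM of MXD1, MXI1, MXD4 and MXD3 (stacked, linear axis from 0) in each of the 18 libraries, by group and replicate. MXD1 fills 77.3 to 81.5% of the bar at 1.25 µM and 12.9 to 23.2% in untreated cells at 24 h, and MXD3 is absent from the bars at 1.25 µM.

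MNT and MGA, the larger MAX partners, were present in all 18 libraries and did not pass anywhere. MNT (ENSG00000070444; chromosome 17, 2384060 to 2401118, minus strand) was at 5.25, 2.20 and 3.17 TPM with 1.25 µM, against 2.86, 3.95 and 3.05 TPM in untreated cells. These overlapped, with a difference of 0.04 (adjusted p = 0.959, 95% interval -0.52 to 0.59). At 48 h it stood at 4.48, 2.69 and 3.03 TPM with 0.63 µM and 3.33, 2.59 and 2.41 TPM without it, which also overlapped.

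MGA (ENSG00000174197; chromosome 15, 41621224 to 41773081, plus strand) stood at 15.61, 14.70 and 13.97 TPM in untreated cells at 24 h, at 13.37, 1.97 and 11.76 TPM with 0.32 µM, at 10.06, 3.10 and 10.08 TPM with 0.63 µM and at 15.52, 10.19 and 6.95 TPM with 1.25 µM. All libraries at 0.32 and 0.63 µM were below the untreated ones, and in each of those groups replicate 2 was far below the rest. The differences were -0.95 and -0.99 (SE 0.528 each, adjusted p = 0.849 and 0.352). At 48 h MGA was at 7.97, 8.83 and 7.45 TPM with 0.63 µM and 11.20, 20.72 and 7.10 TPM without it, with overlap.

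The order of levels within a group moved accordingly, read in TPM. In untreated cells at 24 h MAX (27.6 ± 5.46) stood above MGA (14.8 ± 0.822) and MGA above MXI1 (5.82 ± 3.53) without overlap, and below these MNT, MXD3, MXD1, MYC and MXD4 each overlapped the next (SD, n = 3). At 1.25 µM MXD1 (26.2 ± 8.78) came second and overlapped MAX (31.4 ± 0.385), with MGA (10.9 ± 4.33) and MYC (9.53 ± 0.932) next and overlapping each other. With 0.63 µM at 48 h MAX (18.9 ± 3.94), MXD1 (18 ± 1.85) and MXI1 (16.1 ± 3.37) overlapped in turn at the top, and MXD3 (0.257 ± 0.238) was last.

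Across the 18 libraries, log2(TPM + 1) of MYC correlated most with PFDN2, a subunit of the prefoldin chaperone (r = 0.931), TMED7, a cargo receptor of the secretory pathway (0.917), and GTPBP2, a ribosome rescue factor (0.912), out of 7630 genes with a mean of at least 5 TPM. MXD1 was closest to the snoRNA host ZFAS1 (0.920), the RNA-binding protein gene LARP6 (0.914) and LINC00520 (0.902), out of 7629. MXD3 was closest to CISD3, a mitochondrial iron-sulphur protein (0.928), S100A4, a calcium-binding protein (0.904), and FANCA, of the Fanconi DNA repair pathway (0.888). MAX was closest to STRAP (0.879), TAP2 (0.865) and PGAM5 (0.861). The first genes for the others were PFKL for MXI1 (0.829), NEDD4 for MNT (0.783), LINC00667 for MGA (0.759) and VPS4A for MXD4 (0.742). Among members, MXD1 correlated with MYC at 0.654 and with MXD3 at -0.659. These values describe libraries that share doses and times, and they are the highest of many.

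Genes that act with the network were read from lists of MYC paralogs and the MLX branch, MYC cofactors, MYC turnover, the SIN3 corepressor, PRC1.6 and textbook MYC targets. Of the paralogs and the MLX branch, 3 of 5 were measured (MYCL, MLX and MLXIP), and MYCN and MLXIPL fell below the minimum. In each of the 4 comparisons with untreated cells 0 passed in limma, with at most 1 having an unadjusted p under 0.05. Of all 14936 genes 912 to 3838 had an unadjusted p under 0.05 in these comparisons. MLX, the partner of the glucose-sensing factor MondoA (MLXIP), was at 24.8 ± 3.68 TPM at 1.25 µM and 35.2 ± 7.84 TPM in untreated cells (adjusted p = 0.184; SD, n = 3 each), and MYCL, a MYC paralog, at 0.653 ± 0.717 and 0.173 ± 0.15 TPM. At 0.32 µM 0 members of any of the 7 lists passed in limma, with 0 to 4 in a list having an unadjusted p under 0.05, where 912 of all 14936 genes had one.

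At 0.63 µM for 24 h few of these genes passed, and 2.18% of all genes did. The paralogs and MLX branch, the cofactors, SIN3 and PRC1.6 had 0 calls in limma, with 1, 3, 5 and 3 genes at an unadjusted p under 0.05. Of all 14936 genes 2672 had an unadjusted p under 0.05. PPP2R5A, a regulatory subunit of the phosphatase PP2A, which promotes MYC destruction, fell by 1.14 (adjusted p = 0.0364) and was the 1 of 17 turnover genes to pass. Of 38 MYC-induced genes 1 rose and 2 fell. SHMT2, the mitochondrial serine hydroxymethyltransferase, rose by 0.82, while NCL, nucleolin, fell by 0.96 and the prohibitin PHB1 fell by 1.08. Of 9 MYC-repressed genes GADD45A, a stress-induced growth arrest gene, rose by 1.47 (adjusted p = 0.0276) and CDKN1C, a CDK inhibitor, fell by 1.61 (adjusted p = 0.0171). Except for GADD45A, these calls were lost without untreated 24 h replicates 2 and 3, and the counts of calls in each list ran down to 0 with single libraries left out. With only the 2 compared groups fitted 0 of these genes passed in limma, and the 326 calls over all genes became 0.

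At 1.25 µM more textbook MYC-induced genes fell than rose. Of 38 measured 9 fell and 2 rose (median -0.32, against -0.01 for all genes). Of all 14936 genes 950 fell and 738 rose, 11.3% in either direction. The mitochondrial chaperonins HSPE1 and HSPD1, held on this list though they also belong to protein folding, fell, HSPE1 by 1.37 (SE 0.245, adjusted p = 0.00202). HSPD1 was at 264 ± 74.6 TPM, against 660 ± 260 TPM in untreated cells (adjusted p = 0.00337). NCL fell by 1.36, to 276 ± 34.7 TPM, against 758 ± 371 TPM in untreated cells (SE 0.232, adjusted p = 0.00152). ODC1, the rate-limiting enzyme of polyamine synthesis and a classic MYC target, rose by 1.27, to 31.1 ± 5.22 TPM against 12.9 ± 5.4 TPM in untreated cells (SE 0.377, adjusted p = 0.0401). The count of 9 was 5 without untreated replicate 2, 5 without 1.25 µM replicate 2, 4 without 1.25 µM replicate 3 and 2 without untreated replicates 2 and 3. The 2 that rose, ODC1 and RRN3, became 1 without untreated replicate 2 or 3 and without each 1.25 µM library.

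Of 9 measured genes that MYC is known to repress, 4 rose and 1 fell at 1.25 µM, where 11.3% of all genes passed, with a median of -0.06. GADD45A rose to 319 ± 68.6 TPM, against 54.8 ± 37.6 TPM in untreated cells (adjusted p = 5.59e-05). NDRG1, a differentiation and stress gene, rose by 2.24, CDKN1A, the CDK inhibitor p21, by 1.95 and GADD45B by 1.64. These are also known as stress-induced genes. CDKN1C fell by 1.09 (adjusted p = 0.0343), a call lost without untreated replicate 1 or 3, without each 1.25 µM library and without untreated replicates 2 and 3. The count of 4 was the same with each library left out, and without untreated replicates 2 and 3. At 48 h GADD45A (2.36, adjusted p = 0.000269), NDRG1 (2.29) and GADD45B (0.90) rose, 3 of 9, and 0 fell, where 7.63% of all genes passed; 2 rose without untreated replicate 2 and without 0.63 µM replicate 2 or 3. Over all genes 849 fell and 291 rose at 48 h, 7.63% in either direction. Of the MYC-induced genes 0 rose and 4 of 38 fell at 48 h (median -0.37, against -0.15 for all genes): HSPE1 (-1.63), the cell cycle phosphatase gene CDC25A (-1.22), and the glycolytic genes LDHA (-1.16) and PKM (-1.04). That count was 2 without 0.63 µM replicate 3.

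**Figure D4:**
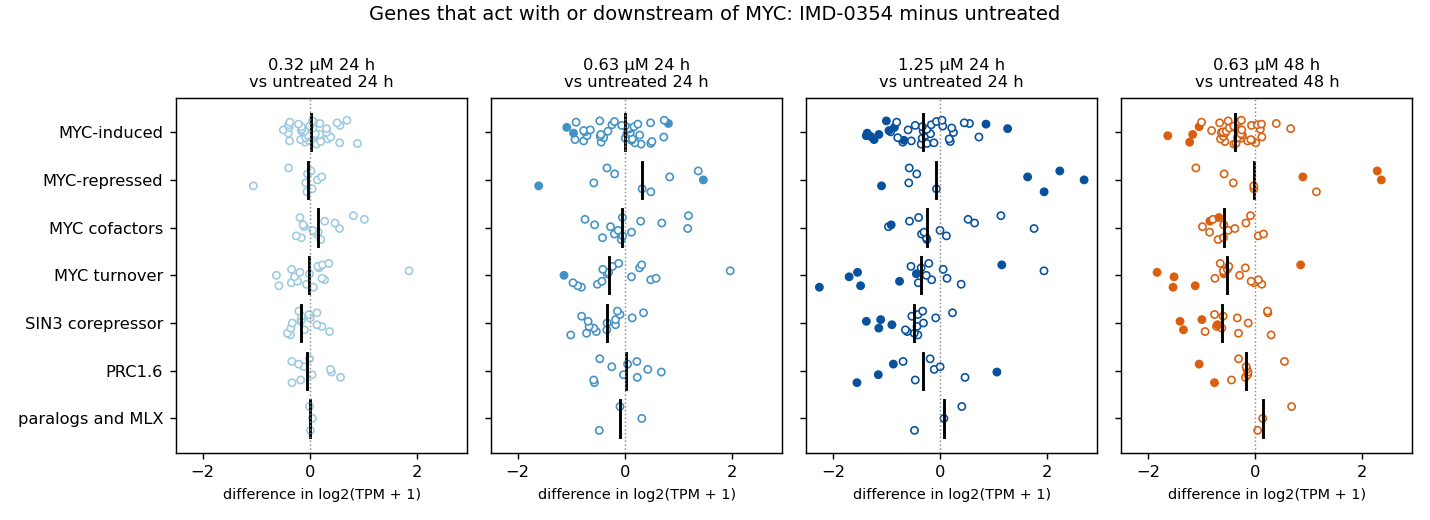
Difference in log2(TPM + 1), IMD-0354 minus untreated of the same time (horizontal axis), for each measured gene of 7 lists; filled points passed over all genes, and black ticks are list medians. At 1.25 µM 9 of 38 MYC-induced genes lie lower and 2 higher among those that passed, and 4 of 9 MYC-repressed genes lie higher.

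Genes of the corepressor that MXD proteins recruit came next. Of 15 SIN3 genes 4 fell and 0 rose at 1.25 µM (median -0.48, against -0.01 for all genes, of which 11.3% passed). RBBP4, a histone-binding subunit, fell by 1.37 (SE 0.189, adjusted p = 0.000278), the deacetylase gene HDAC2 by 1.14 (adjusted p = 0.00331), RBBP7 by 1.11 and ING2 by 0.90. The count was 4 with each library left out and 1 without untreated replicates 2 and 3. At 48 h 4 of 15 fell as well (median -0.62, against -0.15 for all genes, of which 7.63% passed, mostly as falls): RBBP4 by 1.40, HDAC1 by 1.34, RBBP7 by 0.99 and ING2 by 0.70. That count was 2 to 3 with single libraries left out, so it stayed at 4 without none of them. It was 2 without untreated replicate 1 or 3 and without 0.63 µM replicate 1 or 3. Under median-of-ratios scaling it was 3 and under quantile normalization 2. RBBP4 and RBBP7 also serve other chromatin complexes.

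PRC1.6, which contains MGA, had 3 of 10 genes lower and 1 higher at 1.25 µM, where 11.3% of all genes passed (median -0.32, against -0.01 for all genes). CBX3, a heterochromatin protein, fell by 1.55, to 219 ± 23.4 TPM against 665 ± 231 TPM in untreated cells (SE 0.191, adjusted p = 9.5e-05). PCGF6, a subunit that defines the complex, fell by 1.15 (adjusted p = 0.0347) and TFDP1, the E2F partner, by 0.87, while the ubiquitin ligase gene RING1 rose by 1.07 (adjusted p = 0.0291). The 3 became 1 without untreated replicate 3, without 1.25 µM replicate 2 or 3 and without untreated replicates 2 and 3, and the RING1 call was lost without untreated replicate 2, without each 1.25 µM library and without untreated replicates 2 and 3. At 48 h TFDP1 (-1.04) and CBX3 (-0.76) fell, 2 of 10, where 7.63% of all genes passed. Without untreated replicate 1 or 2 that count was 0, and it was 1 without 0.63 µM replicate 3 and under either rescaling, median of ratios or quantile.

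Genes that set MYC protein turnover gave 6 lower and 1 higher of 17 at 1.25 µM (median -0.35, against -0.01 for all genes, of which 11.3% passed). The largest falls were those of mitotic and cell cycle regulators on that list, the kinase genes AURKA (-2.25, adjusted p = 0.000874) and PLK1 (-1.70) and the ubiquitin ligase subunit SKP2 (-1.54, adjusted p = 0.00368). CIP2A, an inhibitor of PP2A, fell by 1.48. The deubiquitinase gene USP36, which acts on MYC in the nucleolus, was the 1 that rose (1.16, adjusted p = 0.00238). Without untreated replicates 2 and 3 the 6 became 2. At 48 h 5 fell and 1 rose (median -0.52, against -0.15 for all genes, of which 7.63% passed): SKP2 by 1.83, AURKA by 1.53, PLK1 by 1.51, CIP2A by 1.12 and SET by 0.58, with USP36 up by 0.85. With single libraries left out the 5 became 2 to 4. The count was 2 without untreated replicate 1 or 2 and without 0.63 µM replicate 3. Without untreated replicate 3 it was 3, as under either rescaling. USP36 lost its call without untreated replicate 3 and without 0.63 µM replicate 1 or 3. Of 14 cofactors 1 passed at 1.25 µM and 2 at 48 h, where 11.3% and 7.63% of all genes did, so the first count is no more than the share over all genes. RUVBL1, an ATPase of chromatin remodelling, fell at 1.25 µM (-0.91, adjusted p = 0.00418), a call lost without untreated replicates 2 and 3, and SMARCB1 (-0.84) and WDR5 (-0.67) fell at 48 h, where the 2 calls were lost without untreated replicate 1 or 2 or 0.63 µM replicate 3, and 1 passed without 0.63 µM replicate 2 and under either rescaling. The acetyltransferase gene KAT5 had the largest difference among cofactors at 1.25 µM, at 18.6 ± 7.23 TPM against 8.44 ± 11.3 TPM in untreated cells, and did not pass (adjusted p = 0.148). With only the 2 compared groups fitted at 1.25 µM, the genes that passed were 1 lower in turnover, 2 lower in SIN3, 1 lower among MYC-induced genes, 2 higher among MYC-repressed genes and 0 in PRC1.6 and the cofactors.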

How the data were processed

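The 18 libraries of A375 cells were made from total RNA with a 3' mRNA kit, per the labels' protocols. Gene-level TPM for all libraries stood in 1 table deposited by the authors; cutadapt 1.18, STAR 2.7, RSEM 1.3.1 and DESeq2 are named, with no role for each, in the submitters' processing notes, and the build is not given in the sources used here. TPM keeps no depth, so the precision that depth allows is unknown. Of 60504 identifiers, 56558 were found in the table of gene names. The fit kept 14936 genes that reached 1 TPM in 3 or more libraries, log2(TPM + 1) was computed, and a mean per group was fitted in R 4.3.3 with limma 3.58.1 (mean-variance trend, 12 residual degrees of freedom). Adjusted p-values are Benjamini-Hochberg over all genes, two-sided. The members and lists were chosen with earlier results of these data known. All 8 members are named; of each list up to 4 genes that passed with the largest change, or else the 2 largest, and the 3 genes most correlated with a member. RUVBL1, SET, USP36, RRN3 and, at 1.25 µM, CDKN1C were named in addition and chosen after their values were seen. The alternatives were other pseudocounts, filters, scalings and variance models, the replicate block and leaving out libraries. The fit was tested on simulated data.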

Additional observations from a re-analysis of the deposited data

How the results depend on the processing

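Among results for single members under all alternatives, 962 kept their direction and side of the threshold, 19 lost a call, 3 gained one and 40 changed sign, none of these with a call in either fit. The cause was not tested. Counts of members passing moved as follows. For 0.63 µM at 24 h the 1 became 0 when the fit held the compared groups alone and without untreated replicates 2 and 3, and ran from 0 to 1 with single libraries left out. For 1.25 µM the 2 became 0 with only the compared groups (adjusted p = 0.0616 for MYC and 0.0641 for MXD1), where all genes called went to 171. For 0.63 µM at 48 h the 2 became 1 with a minimum of 5 TPM, which removes MXD3, and ran from 1 to 2 with single libraries left out. For 1.25 against 0.63 µM the 1 became 0 with a pseudocount of 0.1 TPM, with no filter, with no mean-variance trend, with only the compared groups and under the replicate block (adjusted p = 0.0559), and ran from 0 to 1 with single libraries left out. For 0.63 against 0.32 µM the 0 became 1 with a pseudocount of 5 TPM and under the replicate block, where MYC gave an adjusted p of 0.0426. The labels do not say that replicate numbers pair the libraries, and the block was kept as an alternative: 1 of 21 correlations of same-numbered deviations was over 0.1 (range -0.0927 to 0.115), while 13 of 21 libraries correlated best with their own number, a hint from the data and not the design.

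Sign changes of members that did not pass were these. With a pseudocount of 0.1 TPM MXD3 at 0.63 µM for 24 h was 0.14 and MGA from 0.32 to 0.63 µM 0.0004; MAX was 0.013 at 48 h under median-of-ratios scaling and 0.013 from 0.63 to 1.25 µM under quantile normalization. Without untreated 24 h replicates 2 and 3, chosen after seeing the data, MXD1, MXD4 and MNT at 0.32 µM were -0.17, -0.0041 and 0.089, MAX was -0.043 at 0.63 µM and -0.089 at 1.25 µM, MXD1 between untreated times was -0.017, and the difference of effects was 0.038 for MXD4 and -0.061 for MNT. With single libraries left out the ranges at 0.32 µM were -0.15 to 0.14 for MAX, -0.035 to 0.49 for MYC, -0.36 to 0.52 for MXD1 and -0.13 to 0.054 for MNT. At 0.63 µM for 24 h they were -0.20 to 0.069 for MXD4 and -1.03 to 0.27 for MXD3. At 1.25 µM they were -0.22 to 0.26 for MNT and -0.62 to 0.18 for MXI1. From 0.32 to 0.63 µM MGA ran from -0.77 to 0.44; from 0.63 to 1.25 µM MAX ran from -0.21 to 0.045 and MNT from -0.35 to 0.14. Between untreated times the ranges were -0.20 to 0.67 for MXD1, -0.37 to 0.16 for MYC and -0.66 to 0.048 for MGA. For the difference of effects they were -0.65 to 0.15 for MXI1, -0.088 to 0.20 for MNT and -0.0005 to 0.85 for MGA.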
